A study of Mus musculus with 55 samples.

Results

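The regions described here are the binding sites of the transcription factor Cdx2 that lay in accessible chromatin in cells without Cdx. They were chosen by overlap of region lists. A Cdx2 site was a place where the Cdx2 ChIP-seq regions of 2 replicates from wild type cells overlapped by 1 bp or more, with overlapping regions merged. A site was kept as open when an ATAC-seq region of CdxKO cells overlapped it, in either of 2 lists. Of 1075 Cdx2 sites, 412 were open, which is 38.3%, and the other 663 are called closed. The Cdx2 and ATAC-seq values selected the sites, so they are given as a description with no test.

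The series holds 55 mouse samples on the growth of the embryonic axis, of which 21 region lists were used. Cdx2, T, CBP-P300 and H3K27ac were mapped in wild type epiblast stem cells (EpiSCs). These pluripotent lines were derived from E6.0 embryos before the primitive streak forms, and were grown with IWP2, which blocks Wnt secretion, besides Activin A and Fgf-basic. For these ChIP-seq libraries IWP2 was withdrawn and the cells received 3 µM Chiron (CHIR99021, which activates Wnt signalling) with 120 ng/ml Fgf8 for 24 h, with 2 replicates per target except CBP-P300, which had 1. ATAC-seq came from CdxKO EpiSCs, 1 library untreated in 2 µM IWP2 and 1 library after 48 h in 3 µM Chiron without added Fgf8. H3K27ac was also mapped in wild type embryos at E9.5, in tailbud and in anterior tissue, with 2 replicates each and no treatment. The labels do not list the Cdx alleles lost in CdxKO cells, and the culture text of the untreated CdxKO library speaks of genotyping Wnt3 null EpiSCs. They also do not say whether replicates were separate cultures or lines, or how many embryos gave 1 tissue sample. Cdx2 binding and accessibility thus come from cells that differ in genotype, treatment and time. No accessibility list of wild type cells was analysed here.

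Cdx proteins are homeodomain transcription factors of the posterior embryo that act with T (Brachyury), a T-box factor, in progenitors at the posterior end, whose descendants extend the body axis. H3K27ac is an acetylated histone mark found at active enhancers and promoters, and CBP and P300 are the enzymes that place it. ATAC-seq regions mark chromatin that a transposase can enter, as at promoters and enhancers bound by regulatory proteins.

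The Cdx2 lists held 1210 and 2545 regions in replicates 1 and 2, and the ATAC-seq lists 44850 untreated and 46532 at 48 h. H3K27ac lists in EpiSCs held 27065 and 33764 regions, the CBP-P300 list 13549, and 767 T sites were shared by both T replicates. In E9.5 tissue, replicate 1 held 28599 anterior and 39284 tailbud regions, and replicate 2 held 61674 and 76071. The label of replicate 1 says that its antibody batch cross-reacts with H3K9ac, so values below are of replicate 2, with replicate 1 beside them. Of the open sites, 0 of 412 overlapped a region of the 8 input lists, which hold 429 to 742 regions each. None of the closed sites did either.

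By ATAC-seq, the open sites fell into 3 states. Of the 412 open sites, 263 (63.8%) were open in both CdxKO lists, 117 (28.4%) at 48 h of Chiron only and 32 (7.77%) in untreated cells only. The sites were as narrow as closed ones, with a median of 342 bp against 336 bp. The accessible region around an open site had a median width of 699.5 bp. That median was 873 bp where the site was open at both times, 504 bp at 48 h only and 425 bp in untreated cells only. An ATAC-seq region covered 245 of the 412 sites over their whole width, and 374 had their midpoint inside one. Just inside the threshold, 7 open sites were covered over less than 50 bp. Just outside it, 10 closed sites lay within 50 bp and 50 within 500 bp of an ATAC-seq region. Of these 50 near misses, 78.0% overlapped tailbud H3K27ac and 48.0% anterior H3K27ac, which lies between the open sites and the other closed sites for the anterior tissue.

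In wild type EpiSCs, where Cdx2 was bound, open sites carried H3K27ac more often than closed ones. H3K27ac of both replicates overlapped 153 of the 412 open sites, 37.1% with a Wilson interval from 32.6 to 41.9, and 66 of the 663 closed sites, 9.96% with an interval from 7.90 to 12.5. Over all Cdx2 sites the share was 20.4%. The difference open minus closed was 27.2 percentage points, with a Newcombe interval from 22.0 to 32.4, and by site midpoints in the lists it was 16.1 points (12.2 to 20.3). It was present in each replicate list, with 41.0% against 14.5% in replicate 1 and 52.4% against 16.6% in replicate 2, so it exceeded the gap between the replicates at the open sites. H3K27ac of either replicate overlapped 232 open sites, 56.3%, so that the remaining sites bound Cdx2 with no acetylation listed there.

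CBP-P300, the acetylating enzymes, overlapped 88 open sites, 21.4% with an interval from 17.7 to 25.6. It overlapped 33 closed sites, 4.98% with an interval from 3.57 to 6.91. All Cdx2 sites together gave 11.3%, and the difference open minus closed was 16.4 points (12.2 to 20.8), from 1 library. Its size depended on the overlap rule, with 4.04 points (1.98 to 6.67) by site midpoints in the list and 25.4 points (20.0 to 30.8) with regions within 500 bp. CBP-P300 and H3K27ac coincided at both kinds of site. Of the 153 open sites with EpiSC H3K27ac of both replicates, 67 also overlapped CBP-P300, 43.8%. Of the 259 others, some of them listed in 1 replicate, 21 did, 8.11%, a difference of 35.7 points (27.1 to 44.1). At closed sites the shares were 30.3% and 2.18%, a difference of 28.1 points (18.3 to 40.1). At sites that had EpiSC H3K27ac, the CBP-P300 share of open and closed sites differed by 13.5 points with an interval from -0.653 to 26.1, which includes 0. At sites outside it the difference was 5.93 points (2.80 to 10.0).

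**Figure D1:**
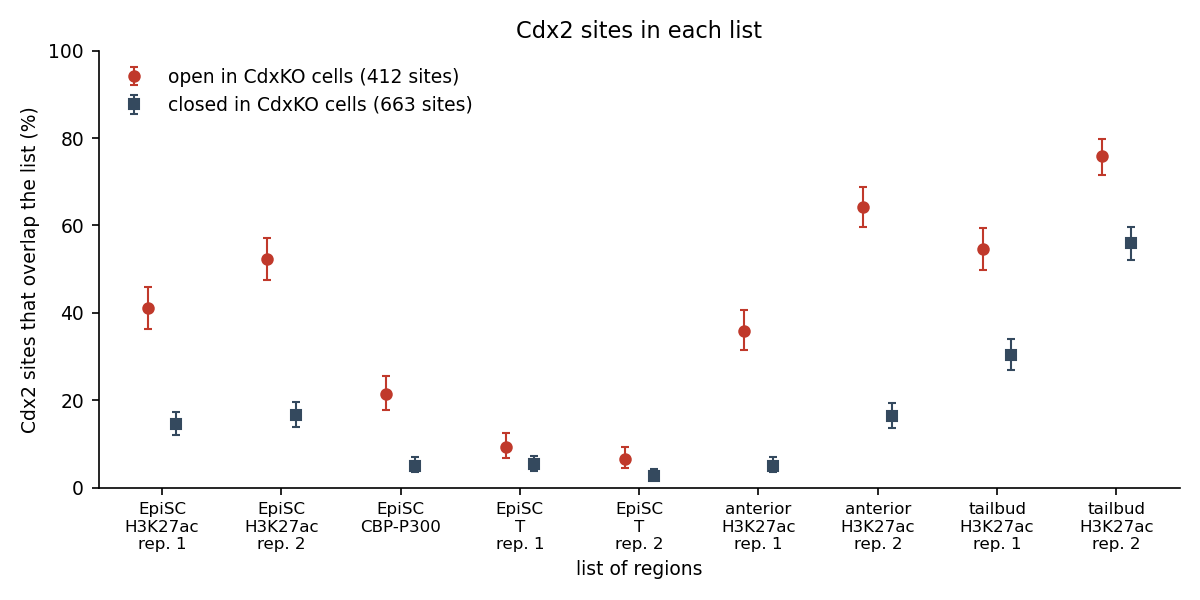
Share of Cdx2 sites (y axis, percent) that overlap each list of regions (x axis), for sites open (red circles) and closed (dark squares) in CdxKO cells, with 95% Wilson intervals as bars. Open sites lie above closed ones in all 9 lists, by the most in the anterior tissue of replicate 2 (64.3% against 16.3%) and by the least in the T lists (6.55% against 2.71% in replicate 2).

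Accessible places in CdxKO cells as a whole are a second point of comparison. For this, each open site and each of the 55973 merged ATAC-seq regions was set to a window of 500 bp around its midpoint. The merged regions themselves had a median width of 481 bp, and those at open sites 699.5 bp. The part of region width in the differences from all windows was not tested. EpiSC H3K27ac overlapped 40.8% of the open Cdx2 sites and 29% of all ATAC-seq windows, a difference of 11.7 points (7.08 to 16.6). CBP-P300 overlapped 28.4% of the open sites and 14% of all windows, a difference of 14.4 points (10.2 to 18.9). T overlapped 5.83% and 0.523%, a difference of 5.30 points (3.42 to 8.0). The open Cdx2 sites thus exceeded ATAC-seq regions in general in all 3 EpiSC readouts. The 412 sites lay in 411 of the 55973 merged regions, 0.734% of them.

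In the E9.5 embryo, most open sites were acetylated, and mostly in both tissues. Tailbud H3K27ac overlapped 313 of 412 open sites, 76.0% (71.6 to 79.8), and 371 of 663 closed sites, 56.0% (52.2 to 59.7). The share over all Cdx2 sites was 63.6%, and the difference open minus closed was 20.0 points (14.3 to 25.4). Without Cdx2 replicate 1, that is with all regions of replicate 2, it was 32.8 points (28.9 to 36.5). Anterior H3K27ac overlapped 265 open sites, 64.3% (59.6 to 68.8), and 108 closed sites, 16.3% (13.7 to 19.3). Over all Cdx2 sites the anterior share was 34.7%, and the difference open minus closed was 48.0 points (42.4 to 53.2). The gap between open and closed sites was therefore wider in the anterior tissue than in the tailbud, and the 2 intervals did not overlap.

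Replicate 1 gave lower shares in both tissues with its shorter lists. Its anterior list overlapped 35.9% of open and 4.98% of closed sites, and its tailbud list 54.6% and 30.3%. The difference open minus closed there was 30.9 points in anterior (26.1 to 35.9) and 24.3 points in tailbud (18.3 to 30.1), and these intervals overlapped. Each of the 225 open sites listed in tailbud replicate 1 and of the 148 listed in anterior replicate 1 was also listed in replicate 2 of that tissue.

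Read by tissue pattern, 249 open sites (60.4%) were acetylated in both tissues, 64 (15.5%) in tailbud only, 16 (3.88%) in anterior only and 83 (20.1%) in neither. Tailbud without anterior was the pattern of 271 closed sites, 40.9%, and of 31.2% of all Cdx2 sites. The difference open minus closed in this pattern was -25.3 points (-30.3 to -20.0), and in acetylation of both tissues it was 45.4 points (39.7 to 50.6). Neither tissue was acetylated at 42.8% of closed sites. These values are of replicate 2. In replicate 1, tailbud only was the pattern of 88 of the 412 open and 170 of the 663 closed sites. These shares lay much closer to each other, so the size of the replicate 2 difference was not repeated there. The interval of the difference in replicate 1 was not computed. Both tissues were acetylated at 137 open and 31 closed sites in replicate 1.

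The tailbud still exceeded the anterior tissue at open sites. Among the open sites listed in 1 tissue only, 64 were tailbud and 16 anterior, a difference in share of 11.7 points, with an adjusted p of 1.17e-07 by the exact McNemar test over sites. In replicate 1 the counts were 88 and 11, a difference of 18.7 points with an adjusted p of 1.51e-15 by the same exact test. At closed sites they were 271 and 8 in replicate 2, with an adjusted p of 1.75e-68, and 170 and 2 in replicate 1, with an adjusted p of 2.49e-47, both by the exact McNemar test. Tailbud made up 64 of the 80 discordant open sites, 80%, and 97.1% of the 279 discordant closed sites, a difference of -17.1 points (-27.3 to -9.36). In replicate 1 these shares were 88.9% and 98.8%, a difference of -9.95 points (-17.7 to -4.31). The tailbud lists were the longer ones in both replicates, covering 83.2 Mb against 69.5 Mb in replicate 2 and 38.4 Mb against 27.4 Mb in replicate 1. The part of list length in the tailbud excess at open sites was not tested. All ATAC-seq windows, measured with the same lists, held 3978 tailbud only and 4097 anterior only in replicate 2, and 4891 and 1867 in replicate 1. Tailbud thus made up 49.3% of their discordant windows in replicate 2 and 72.4% in replicate 1. The McNemar tests take an even split as reference, so in replicate 1 a low p is not particular to the Cdx2 sites. Each test compares 1 library per tissue, and sites are not replicates of a tissue.

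Set beside those windows at 500 bp, open Cdx2 sites had more tailbud acetylation, 77.4% against 55.6%, a difference of 21.8 points (17.5 to 25.6). Anterior acetylation was 65.3% against 55.8%, a difference of 9.45 points (4.71 to 13.9). In replicate 1 the anterior difference was 1.88 points with an interval from -2.65 to 6.66, so it did not hold there, while the tailbud difference was 15.7 points (10.8 to 20.4). Tailbud without anterior was the pattern of 16.5% of open Cdx2 sites and 7.11% of all windows, a difference of 9.40 points (6.12 to 13.3).

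**Figure D2:**
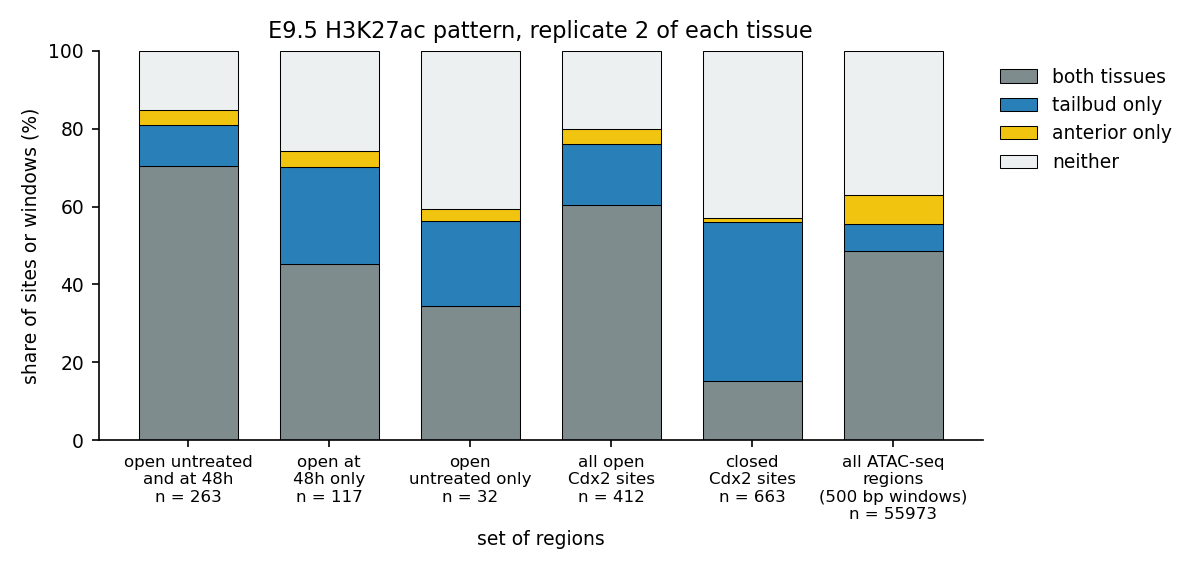
Stacked bars of the share (y axis, percent) of Cdx2 sites, or of all ATAC-seq windows, with H3K27ac in both E9.5 tissues, in tailbud only, in anterior only or in neither, from replicate 2. The tailbud only part is 10.6% of sites open at both times, 24.8% of sites open at 48 h only and 40.9% of closed sites, and 7.11% of all ATAC-seq windows. In replicate 1, not shown, tailbud only held 88 of the 412 open and 170 of the 663 closed sites.

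Acetylation in EpiSCs and in the embryo went together at open and at closed sites. Of the 153 open sites with EpiSC H3K27ac, 140 (91.5%) were acetylated in tailbud and 130 (85%) in anterior tissue. Of the 259 without it, 173 (66.8%) were acetylated in tailbud and 135 (52.1%) in anterior tissue. The difference was 24.7 points in tailbud (17 to 31.6) and 32.8 points in anterior tissue (24.0 to 40.6). At closed sites the same differences were 25.4 points in tailbud (13.4 to 34.4) and 24.0 points in anterior tissue (12.8 to 36.3). Open sites with CBP-P300 were similar, with 82 of 88 (93.2%) in tailbud and 79 (89.8%) in anterior tissue. The anterior gap between open and closed sites was also present within each group by EpiSC H3K27ac. It was 47.1 points (33.4 to 58.8) among sites with EpiSC H3K27ac of both replicates, and 38.2 points (31.5 to 44.8) among the others. The level of acetylation within a group was not measured.

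T, the partner factor of Cdx in axial progenitors, bound few open sites, and most of these were listed as open only after Chiron treatment. Both T replicates overlapped 25 of the 412 open sites, 6.07% (4.14 to 8.80), and 17 of the 663 closed ones, 2.56% (1.61 to 4.07). The share over all Cdx2 sites was 3.91%, and the difference open minus closed was 3.50 points (1.06 to 6.40). Of the 25 sites, 20 were open at 48 h only, 5 at both times and 0 in untreated cells only. That is 17.1% of the sites open at 48 h only (11.4 to 24.9) against 1.90% of those open at both times (0.815 to 4.37), a difference of 15.2 points (8.94 to 23.1). In replicate 1 of T the 2 shares were 22.2% and 4.18%, and in replicate 2 they were 17.9% and 2.28%. Against closed sites, those open at 48 h only differed by 14.5 points (8.59 to 22.4). When sites were called open from the untreated ATAC-seq list alone, the open minus closed difference in T was -3.05 points (-5.03 to -0.493). That setting counts the 20 T-bound sites open at 48 h only as closed, so its sign follows from the split just given.

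Cdx2 sites open at 48 h only were also compared with other chromatin in that state. The merged ATAC-seq region had a median width of 504 bp at these Cdx2 sites and of 264 bp over all regions of that state. The part of this width in the differences below was not tested. Of the 11863 ATAC-seq regions listed at 48 h only, 1.56% overlapped a T site in a 500 bp window, against 16.2% of the 117 Cdx2 sites, a difference of 14.7 points (9.09 to 22.4). Sites open at both times also exceeded regions of their own state in T, with 1.90% against 0.294%, a difference of 1.61 points (0.519 to 4.08). Among those listed at 48 h only, CBP-P300 overlapped 3.63% of the ATAC-seq regions and 21.4% of the Cdx2 sites, a difference of 17.7 points (11.3 to 26.0). EpiSC H3K27ac overlapped 7.93% and 29.1% of the same 48 h only sets, a difference of 21.1 points (13.7 to 29.9). In the embryo, tailbud H3K27ac overlapped 41.0% and 71.8% of them, a difference of 30.8 points (22.0 to 38.3). Anterior H3K27ac overlapped 43.0% and 50.4%, and the difference of 7.43 points had an interval from -1.54 to 16.4.

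The 3 ATAC-seq states differed in the other readouts too. EpiSC H3K27ac overlapped 46.0% of sites open at both times, 25.6% of those open at 48 h only and 2 of the 32 open in untreated cells only. The difference between 48 h only and both times was -20.4 points (-29.7 to -9.93), and it was -13.0 points in replicate 1 and -24.0 in replicate 2 of H3K27ac. CBP-P300 overlapped 25.9%, 16.2% and 1 of 32 sites. Its difference between 48 h only and both times, -9.62 points (-17.5 to -0.450), included 0 under 4 other settings for overlap and replicates. Anterior H3K27ac overlapped 74.1%, 49.6% and 37.5% of the sites in that order, and tailbud H3K27ac 81.0%, 70.1% and 56.3%. The difference between 48 h only and both times was -24.6 points in anterior tissue (-34.7 to -14.0) and -10.9 points in tailbud (-20.7 to -1.75). In replicate 1 the anterior shares were 19.7% at 48 h only and 46.4% at both times, a difference of -26.7 points (-35.4 to -16.7). The tailbud shares there were 41.9% and 63.9%, a difference of -22.0 points (-32.2 to -11.2). By site midpoints in replicate 2 the tailbud difference was -18.2 points. All ATAC-seq windows showed the same order over the 3 states. In EpiSC H3K27ac they stood at 43.5%, 7.93% and 3.96%, in anterior H3K27ac at 69.1%, 43.0% and 24.9%, and in tailbud H3K27ac at 68.8%, 41.0% and 27.3%. The order is thus not particular to the Cdx2 sites. In 500 bp windows, Cdx2 sites open at both times exceeded all regions of that state by 6.33 points in EpiSC H3K27ac (0.305 to 12.3). Each ATAC-seq state rests on 1 library per time, and the wider accessible regions of sites open at both times stand beside these values, while their part in them was not tested.

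Tailbud without anterior was the pattern of 24.8% of sites open at 48 h only and 10.6% of sites open at both times, a difference of 14.1 points (5.97 to 23.2). By site midpoints in the lists it was 7.49 points with an interval from -0.162 to 16.3, which includes 0. All ATAC-seq windows had the same direction, with 10.1% at 48 h only and 5.26% at both times. Among sites open at 48 h only, 29 were listed in tailbud only and 5 in anterior only, with an adjusted p of 5.51e-05 by the exact McNemar test. Among sites open at both times the counts were 28 and 10, with an adjusted p of 0.00637 by the exact test. Among those open in untreated cells only they were 7 and 1, with an adjusted p of 0.0781 by the exact test. Replicate 1 gave 28 and 2, 54 and 8, and 6 and 1 in the same order. In replicate 1, tailbud only thus held 28 of the 117 sites open at 48 h only and 54 of the 263 open at both times. These shares lay closer to each other than in replicate 2, and the interval of their difference was not computed. Of the discordant sites, tailbud held 85.3% at 48 h only and 73.7% at both times, and the interval of that difference, -7.54 to 29.3 points, included 0.

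**Figure D3:**
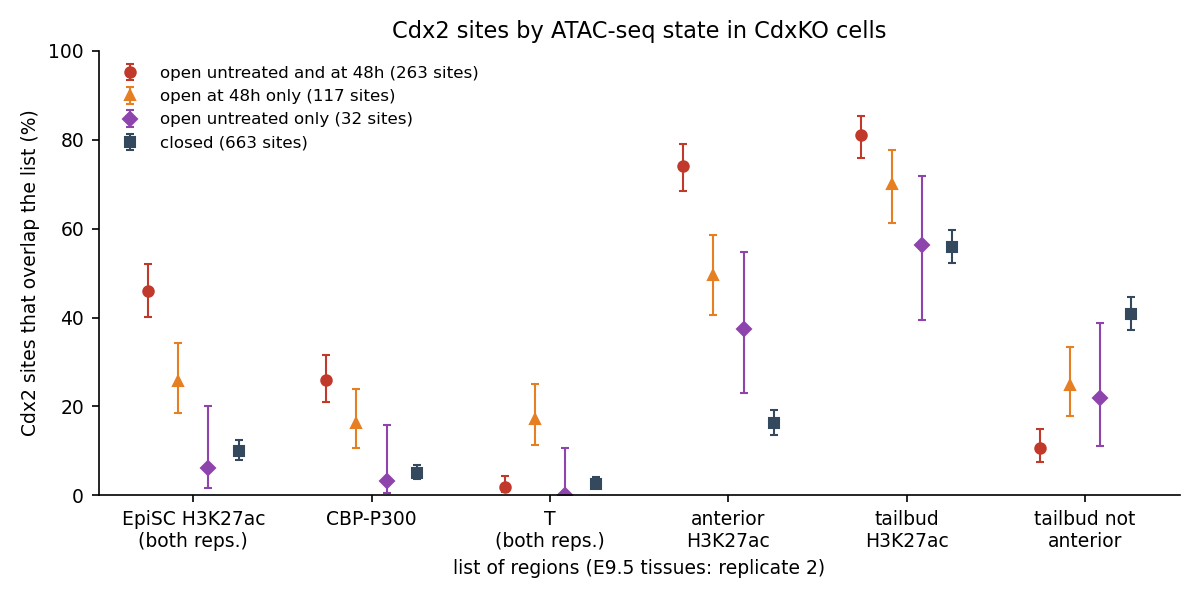
Share of Cdx2 sites (y axis, percent) in each list (x axis) for sites open in both CdxKO lists, at 48 h only, in untreated cells only, and closed sites, with 95% Wilson intervals. T stands at 17.1% for sites open at 48 h only and at 1.90% for sites open at both times, while EpiSC H3K27ac stands at 25.6% and 46.0%.

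Cdx2 sites bound by T, open or closed, were less often acetylated in tailbud than the others. Of the 25, 13 overlapped tailbud H3K27ac (52.0%) and 4 anterior H3K27ac (16%), 9 lay in tailbud only and 12 in neither tissue. Of the 387 other open sites, 77.5% overlapped tailbud and 67.4% anterior H3K27ac. The difference was -25.5 points in tailbud (-44.4 to -7.02) and -51.4 points in anterior tissue (-62.0 to -32.2). At closed sites it was -33.3 points in tailbud (-47.8 to -9.24) and -10.7 points in anterior tissue, with an interval from -16.4 to 10.6 that includes 0. Among the 20 bound by T and open at 48 h only, 10 overlapped tailbud and 1 overlapped anterior H3K27ac. EpiSC H3K27ac overlapped 7 of the 25 and CBP-P300 3. The 25 open sites held 3.26% of the 767 T sites.

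Over the 5 readouts together, the open sites were spread over a few combinations. The most frequent was H3K27ac in both embryonic tissues and nothing in EpiSCs, at 105 sites (25.5%). A further 64 sites added EpiSC H3K27ac to both tissues, and 60 had EpiSC H3K27ac, CBP-P300 and both tissues. Tailbud H3K27ac alone marked 44 sites, T alone 10, and 60 sites (14.6%) overlapped none of the 5. For the combinations, H3K27ac in EpiSCs and T counted only where both replicates were listed. Leaving that condition out, 50 open sites overlapped no H3K27ac, CBP-P300 or T list of any replicate.

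**Figure D4:**
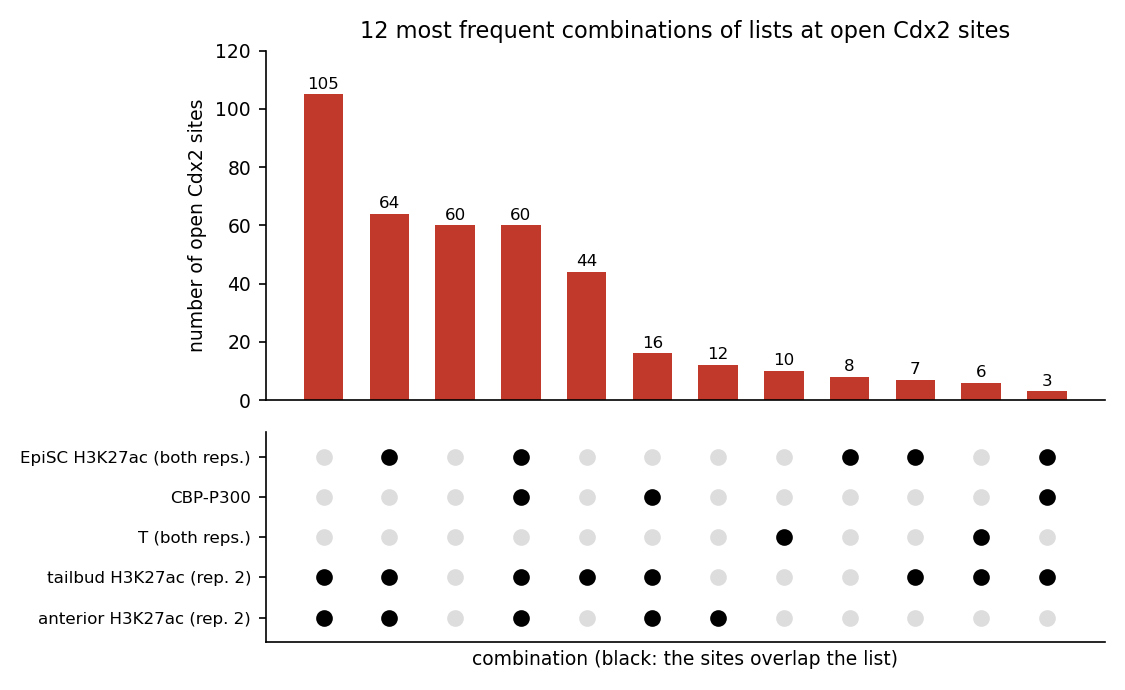
Number of open Cdx2 sites (bars, y axis) in the 12 most frequent combinations of 5 readouts, with black dots for the lists that the sites overlap. The combination of both E9.5 tissues without any EpiSC readout holds 105 sites, and the combination with none of the readouts holds 60. H3K27ac in EpiSCs and T count here only where both replicates are listed.

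1 open site overlapped every kind of list, at chr16:96091159-96091761 on mm9 (603 bp). Its ATAC-seq region of 297 bp was listed at 48 h only. The overlapping regions were 1371 and 1402 bp wide in the EpiSC H3K27ac replicates, 463 bp in CBP-P300, and 268 and 163 bp in the T replicates. In tailbud they were 2058 and 3997 bp in replicates 1 and 2. In anterior tissue replicate 1 listed none and replicate 2 a region of 471 bp. This site thus had a broad acetylated region in tailbud and a narrow one, in 1 replicate, in anterior tissue.

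Of the 20 sites open at 48 h only and bound by T, the 4 widest were the site just described and 3 more. The widest was chr1:18181403-18182122 (720 bp), with T regions of 339 and 181 bp and an ATAC-seq region of 383 bp. The next, chr17:27790054-27790662 (609 bp), had T regions of 180 and 232 bp and an ATAC-seq region of 196 bp. Neither overlapped H3K27ac in any EpiSC or E9.5 list. The site chr10:29575584-29576134 (551 bp) had T regions of 397 and 313 bp, EpiSC H3K27ac regions of 2139 and 1050 bp, and tailbud regions of 398 and 2679 bp with no anterior region. These 3 sites show both forms of T-bound site, with and without acetylation.

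In all, 24 open sites were in both tailbud lists and in neither anterior list, and 1 was in both anterior lists and in neither tailbud list. The widest of the 24 was chr6:58948992-58949576 (585 bp), with tailbud regions of 1108 and 1574 bp and an ATAC-seq region of 166 bp at 48 h. At chr2:163114587-163115146 (560 bp), open at both times, the tailbud regions were 961 and 1388 bp. At chr6:84147677-84148230 (554 bp), open in untreated cells only, they were 1091 and 2355 bp. The sites chr15:93803277-93803772 and chr2:159021823-159022308 were open at 48 h only, and the second of them overlapped T regions of 296 and 245 bp. All 3 ATAC-seq states were thus found among the widest tailbud sites. The 1 anterior site, chr4:125925734-125926013 (280 bp), was open at both times, with anterior regions of 630 and 1411 bp, EpiSC H3K27ac regions of 1332 and 1828 bp and a CBP-P300 region of 407 bp.

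The widest sites outside every H3K27ac, CBP-P300 and T list were chr3:154130998-154131588 (591 bp), chr2:114957843-114958408 (566 bp), chr14:34496871-34497408 (538 bp) and chr9:101448611-101449101 (491 bp). The first 3 were open at both times, with ATAC-seq regions of 316 and 515 bp, 1108 and 504 bp, and 443 and 625 bp in untreated cells and at 48 h. The last was open at 48 h only, in a region of 742 bp. Accessibility at these sites was listed without any of the other readouts.

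With neighbours at most 50 kb apart, 38 of the 412 open sites (9.22%) formed 17 chains. By the same rule, chains held 90 of the 663 closed sites (13.6%) and 205 of all 1075 Cdx2 sites (19.1%), sets that hold more sites. Of the open sites, 51 (12.4%) had a closed site within 50 kb. The chain with the most sites, chr6:52114891-52172250, held 6 open sites and 5 closed sites within 57.4 kb. All 6 open sites and all 5 closed sites lay in 1 tailbud H3K27ac region of 102726 bp in replicate 2, the second widest of that list. Replicate 1 listed the same stretch as separate regions of up to 30079 bp. In anterior tissue of replicate 2, 4 of the open sites shared a region of 30611 bp, another lay in a region of 7156 bp and the last, at the far end of the chain, lay in none. Counted from the start of the first open site, that last site began at 56.96 kb. An anterior region of replicate 2, of 446 bp, ended just before it, at 56.93 kb. All 5 closed sites also overlapped anterior H3K27ac, 2 of them in the region of 30611 bp. EpiSC H3K27ac of both replicates overlapped 4 of the 6 open sites, CBP-P300 0 and T sites shared by both replicates 0. On the same scale, CBP-P300 regions began at 12.45 and 26.23 kb, just past open sites that ended at 12.39 and 26.22 kb. A T region of 324 bp, listed in replicate 1 only, overlapped 1 of the 6 open sites. In this stretch, 5 of the 6 sites were open at both times and 1 at 48 h only.

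**Figure D5:**
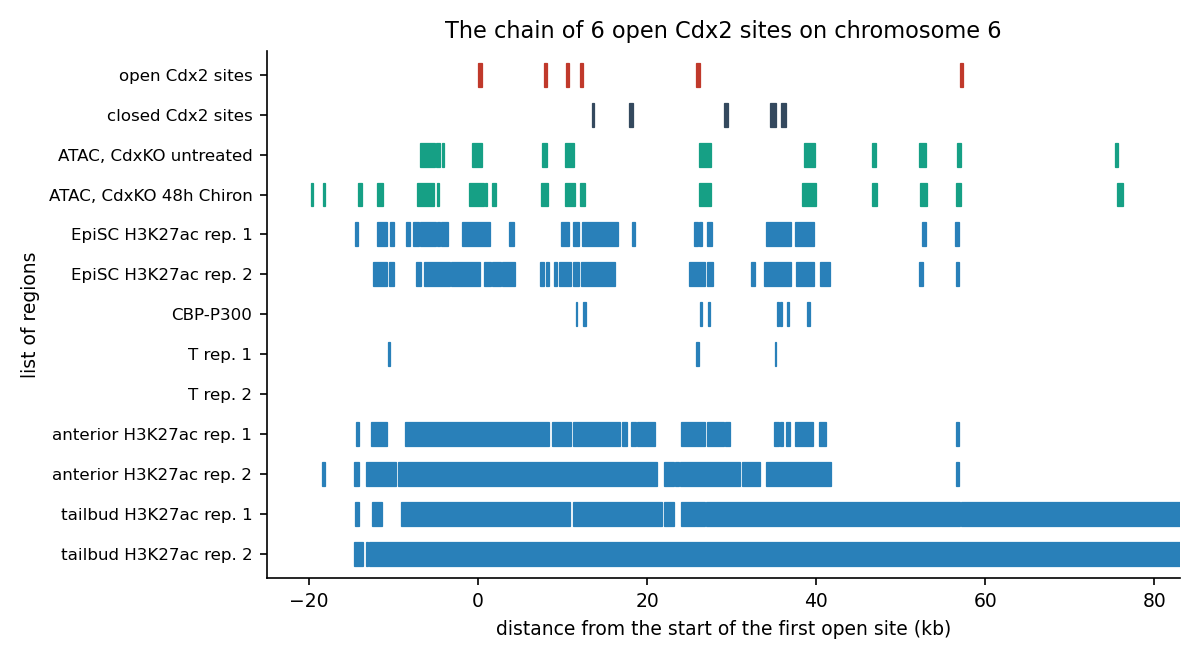
Map of the chain of 6 open Cdx2 sites, with the regions of each list (rows) by distance from the start of the first open site (x axis, kb). The tailbud regions of replicate 2 span all 6 open and 5 closed sites, while the widest anterior region of replicate 2, of 30611 bp, holds 4 of the open and 2 of the closed sites. All 5 closed sites overlap an anterior region of replicate 2.

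The next chains were pairs. At chr14:105900393-105901505, 2 sites open at both times lay in 1 ATAC-seq region of 2179 bp at 48 h. They shared EpiSC H3K27ac regions of 3944 and 4542 bp, a CBP-P300 region of 570 bp and E9.5 regions in both tissues and both replicates. At chr19:15911171-15912583, 2 sites lay in 1 ATAC-seq region of 1397 bp in untreated cells, and only the second was also open at 48 h. Both overlapped tailbud regions of 2194 and 4252 bp, and the second alone overlapped an anterior region, of 1891 bp in replicate 2. Sites of 1 chain that share a region are not independent counts in the shares above. The widest tailbud region of replicate 2, of 106556 bp on chromosome 11, held 2 open and 8 closed sites, and the third widest, of 99322 bp on chromosome 15, held 1 open and 5 closed sites.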

How the data were processed

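ChIP-seq measured where a protein or histone mark lies on DNA, and ATAC-seq where chromatin is accessible to a transposase. The authors deposited 1 list of regions per library, and the values used are the start and end positions of each region on mm9, per the labels and the submitters' processing notes. The lists carry no counts and no scores, so the read depth behind a region is unknown, and only the number and width of listed regions limit the precision. For ChIP-seq the submitters' processing notes name Bowtie 1.1.0, SAMtools 0.1.19 and MACS2 2.1.0. For ATAC-seq they name cutadapt 1.8.1, Bowtie2 2.1.0, SAMtools 0.1.19 and MACS2 2.1.0. Peak calling thresholds and the treatment of reads at transposase cuts are not given in the sources used here.

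Groups came from the labels. Regions were merged and overlapped in Python 3.11.15 with NumPy 2.4.6 and SciPy 1.17.1, with an overlap of 1 bp or more, and the overlap code was tested on simulated regions. The members and the lists were chosen with earlier results of these data known. Shares carry 95% Wilson intervals and differences between shares 95% Newcombe intervals. These intervals cover counting error over sites, not variation between libraries, and a difference is read beside its values in each replicate list. The tissues were compared at the same sites by an exact two-sided McNemar test, a binomial test of the sites listed in 1 tissue only, with Benjamini-Hochberg adjustment over 10 such tests. Sites on the 2 sides of a test come from the same pair of libraries and are not replicates of a tissue. H3K27ac in EpiSCs and T counted where both replicates overlapped. E9.5 values are of replicate 2, because the label of replicate 1 reports an antibody batch that cross-reacts with H3K9ac, and replicate 1 is given beside it.

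Regions named in the text, none of them on chromosome 18, are the widest members of 5 kinds and the chains of members with the most sites. The kinds are members in all lists, members in no list, members in both tailbud lists and neither anterior list, the reverse, and members open at 48h only that overlap a T site. Alternatives were the required overlap, the use of midpoints, windows of 500 bp, each ATAC-seq list alone and each replicate left out. Further ones left out sites in an input list or used a replicate block for the tissues. Gene names and sequences of the sites, RNA tables and 4C-seq were not used here.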

Additional observations from a re-analysis of the deposited data

How the results depend on the processing

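Of 135 alternative values over 13 results, 128 kept their direction and their side of 0 or of the test's threshold. For each of the 13 results, an alternative left out sites in an input list. No Cdx2 site was in one, so this setting could only repeat the main value. For the tissues, E9.5 lists of either replicate repeated the value of replicate 2, and lists of both replicates repeated that of replicate 1. The number of open Cdx2 sites was 478 and 842 when the regions of 1 Cdx2 replicate were used alone, the latter without replicate 1, against 412. With the untreated ATAC-seq list alone, the difference open minus closed in T turned to -3.05 points, with an interval from -5.03 to -0.493, because this setting moves the sites open at 48h only to the closed side. The difference in CBP-P300 between sites open at 48h only and at both times lost its distance from 0 in 4 settings. It was -8.21 points by site midpoints in ATAC-seq, -1.81 by midpoints in the CBP-P300 list, -10.2 with regions within 500 bp, and -9.61 to -5.82 with 1 Cdx2 replicate left out, the latter, without replicate 1, with an interval that includes 0. The same difference for tailbud without anterior fell to 7.49 points by midpoints in the lists, with an interval from -0.162 to 16.3. The cause was not tested. The paired value for the tissues, a replicate block that averages the tailbud minus anterior differences within replicate 1 and within replicate 2, was 15.2 points against 11.7, with no test. No other alternative ended a call. For tailbud without anterior, alternatives were run only for sites open at 48h only against both times, without replicate 1 of the E9.5 tissues. None were run for open against closed sites in that pattern or in acetylation of both tissues. The alternatives for sites open at 48h only against those open at both times, and replicate 1 of the E9.5 tissues in the comparison of open with closed sites, were added after seeing the data.

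Each ATAC-seq list and the CBP-P300 list rests on 1 library, so ATAC-seq states have no replicate check. A site counts as closed when no region was listed there, which does not measure accessibility below the authors' threshold. Longer lists overlap more sites, and read depths are unknown.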

Other observations

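Cdx2 regions listed in 1 replicate only were not among the 1075 sites, and 503 of them overlapped an ATAC-seq region of CdxKO cells. Of the regions listed in replicate 1 only, 71 of 134 were open, 53.0% with an interval from 44.6 to 61.2. Of those listed in replicate 2 only, 432 of 1467 were open, 29.4% with an interval from 27.2 to 31.8. The shorter list of replicate 1 thus held fewer such regions and a larger open share of them.

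These single-replicate regions gave the comparison of open with closed places a second set of regions in the same ATAC-seq, H3K27ac, CBP-P300 and T libraries. The difference open minus closed was 27.2 points in EpiSC H3K27ac (23.2 to 31.5), 11.0 in CBP-P300 (8.36 to 14.2) and 1.97 in T (0.255 to 4.17). In E9.5 tissue it was 47.8 points in anterior (43.0 to 52.4) and 38.0 in tailbud (33.0 to 42.7). The share in tailbud without anterior was 17.1% of the open and 23.9% of the closed single-replicate regions, a difference of -6.76 points (-10.8 to -2.48). This last gap was smaller than the -25.3 points at sites shared by both replicates, and the intervals of the 2 differences did not overlap. Both values are of replicate 2 of the E9.5 tissues. In E9.5 replicate 1, the open and closed shares at shared sites lay much closer to each other. Most single-replicate regions came from Cdx2 replicate 2, where the shares were 18.3% of 432 open and 23.3% of 1035 closed regions. In regions of Cdx2 replicate 1 only, the shares were 9.86% of 71 open and 33.3% of 63 closed regions. The small gap was thus that of the replicate 2 regions. Intervals of the difference were not computed for each replicate.

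By chromosome, the open share of Cdx2 sites ran from 11.1% on chromosome X, where 1 of 9 sites was open, to 55.1% on chromosome 14, where 27 of 49 were. The intervals were wide, from 1.99% to 43.5% on X and from 41.3% to 68.2% on 14.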
